A study of Rattus norvegicus with 9 samples.

Results

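The expression of 10 genes of the neuromuscular junction and of the muscle response to lost innervation was followed in rat gastrocnemius: the acetylcholine receptor subunits Chrna1, Chrnb1, Chrnd, Chrne and Chrng, the receptor kinase gene Musk, the adhesion gene Ncam1, and the regulators Runx1, Gadd45a and Hdac4. All array probe sets whose only gene symbol in the platform annotation is one of these 10 were taken, which gave 14 of 31042 probe sets for 10 of 14217 genes. Male Wistar rats of 250 g, whose age is not given in the sources used here, were infused from Alzet pumps for 7 days. The vehicle group received propylene glycol only. The dexamethasone group received this synthetic glucocorticoid at 0.7 mg/kg/day. The third group received the same dexamethasone with testosterone, at 28 mg/kg/day by the sample labels and at 20 mg/kg/day by the series text, a difference that could not be settled here. Each group had 3 animals, and every animal had an array of its own, made from total RNA of a 20 mg piece of the muscle. The study asked what testosterone does to the transcript changes that dexamethasone brings about in this muscle.

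At the junction the motor nerve releases acetylcholine onto a receptor of 5 subunits in the muscle membrane. Agrin from the nerve acts through Lrp4 and the kinase MuSK to gather the receptors under the nerve ending, where the few nuclei below the synapse transcribe the subunit genes. The gamma subunit, encoded by Chrng, belongs to the fetal receptor and is replaced by the epsilon subunit, encoded by Chrne, in innervated adult muscle. When the nerve is cut, Chrna1, Chrng, Musk, Ncam1, Runx1 and Gadd45a are known to rise along the fibre, and the deacetylase HDAC4 is known to link the loss of nerve activity to this program through myogenin. Glucocorticoids and denervation both cause muscle wasting, and some transcripts of this program are often used to tell nerve loss from other kinds of wasting.

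The promoters of the subunit genes carry E-boxes, the sites of myogenic factors, and in several cases an N-box, the site of ETS factors that respond to nerve-derived signals. Of the 10 genes, 9 were in the RefSeq promoter table of the GRCr8 build, all but Ncam1. In the 250 bases before the annotated start, the E-box CANNTG, which reads the same on both strands, was found in 8 of the 9 and in 65.5% of all 33469 windows of that length. The N-box core CCGGAA, searched on both strands, was found in 2 of the 9, Chrnd and Chrne, and in 12.6% of all windows. The glucocorticoid receptor hexamer TGTTCT, searched on both strands, was in 0 of the 9 and in 17.5% of all windows. The windows of Chrnd, Chrne and Chrng are shown because they cover the member with the lowest p (Chrnd) and the exchange of fetal for adult receptor (Chrng and Chrne). Capitals mark the E-box and N-box matches, which are matches of letters and not measured sites.
Chrnd, chr9:95310066-95310315, plus strand: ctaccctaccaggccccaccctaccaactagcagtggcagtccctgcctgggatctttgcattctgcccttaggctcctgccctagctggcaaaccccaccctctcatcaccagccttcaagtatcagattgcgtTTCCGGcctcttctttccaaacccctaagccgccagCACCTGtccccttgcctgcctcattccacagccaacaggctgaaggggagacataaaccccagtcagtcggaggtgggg
Chrne, chr10:55834155-55834404, minus strand: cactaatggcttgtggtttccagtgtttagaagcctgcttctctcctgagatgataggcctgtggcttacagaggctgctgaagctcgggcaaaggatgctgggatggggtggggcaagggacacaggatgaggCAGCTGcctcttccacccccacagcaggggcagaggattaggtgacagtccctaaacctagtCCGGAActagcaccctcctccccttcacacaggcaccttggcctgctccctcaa
Chrng, chr9:95325734-95325983, plus strand: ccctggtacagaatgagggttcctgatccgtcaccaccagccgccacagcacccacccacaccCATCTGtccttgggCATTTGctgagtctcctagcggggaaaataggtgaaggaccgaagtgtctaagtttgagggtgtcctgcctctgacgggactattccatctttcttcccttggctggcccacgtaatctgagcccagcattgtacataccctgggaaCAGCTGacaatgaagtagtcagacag

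In Chrne the N-box core begins 54 bases and the E-box 116 bases before the annotated start. In Chrnd they begin 115 and 79 bases before it, and the N-box core lies on the opposite strand. The Chrng window holds 3 E-boxes, at 26, 173 and 187 bases before the start, and no N-box core. Chrnd and Chrng are neighbours on chromosome 9 in this build, with 7249 bases between the end of the one and the start of the other. The annotated start used for Chrne lies inside the gene's annotated span (chromosome 10, 55829835 to 55838853), so other transcripts of it begin further upstream.

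All levels below are quantile normalized log2(intensity + 16) values of 1 probe set, and all differences are on that scale, on which the changes of dim probe sets come out too small. Levels of different probe sets are not comparable with each other. A probe set was tested when its mean over the 9 arrays reached the 40th percentile of all probe sets, a level of 5.75. Of the 14 member probe sets, 9 passed this filter and 5 did not. Chrng and Musk had no probe set above it. The test was limma's moderated test over all 18625 probe sets that passed, with Benjamini-Hochberg adjustment in each comparison and a threshold of 0.05. The 3 comparisons share arrays, since each group enters a pair of them, so they are not independent of each other.

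Arrays differed in ways the groups do not explain. By the deposited scale and the signal of RNA spikes they fell into 3 technical batches, A with vehicle replicates 1 and 3, dexamethasone replicate 1 and combination replicate 1, B with replicate 2 of each group, and C with dexamethasone and combination replicate 3. The 3' to 5' signal ratio of the Gapdh control probe sets, a measure of RNA integrity, stood at 4.94 and 6.22 in batch C and at 1.06 to 1.17 in the other 7 arrays. Batch C holds no vehicle array. The mean log2 level of 7 muscle fibre markers lay between 14.44 and 14.74 in all 9 arrays, and 0 of 7 passed in any comparison. The samples are 20 mg pieces of muscle with all its cell types, in which fewer cells of a type and less RNA per cell cannot be told apart. How much of the junction region each piece held was not measured.

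None of the 10 genes passed the test in any of the 3 comparisons, neither the 8 above the filter nor, in a fit without it, Chrng and Musk. In dexamethasone against vehicle 0 of 9 tested member probe sets were called, where 1.05% of all tested probe sets were called, 0.569% higher and 0.483% lower. An unadjusted limma p under 0.05 was reached by 2 members with higher means under dexamethasone (Chrnd and Gadd45a) and by 1 probe set with a lower mean (Runx1), where 15.5% of all tested probe sets reached it, 7.88% higher and 7.57% lower. In the combination against dexamethasone 0 of 9 were called, where 0.113% of all were, 0.0698% higher and 0.043% lower. There 1 of 9 reached an unadjusted p under 0.05 (Chrnd, lower), where 11% of all did, 5.59% higher and 5.36% lower. In the combination against vehicle 0 of 9 were called, as were 0% of all. There 1 member was higher (Chrne) and 1 lower (Runx1) at an unadjusted p under 0.05, where 6.12% of all reached it, 3.16% higher and 2.95% lower. Missing the threshold does not show that the levels were equal, and the 95% intervals given with each gene say how large a difference the data allow.

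**Figure D1:**
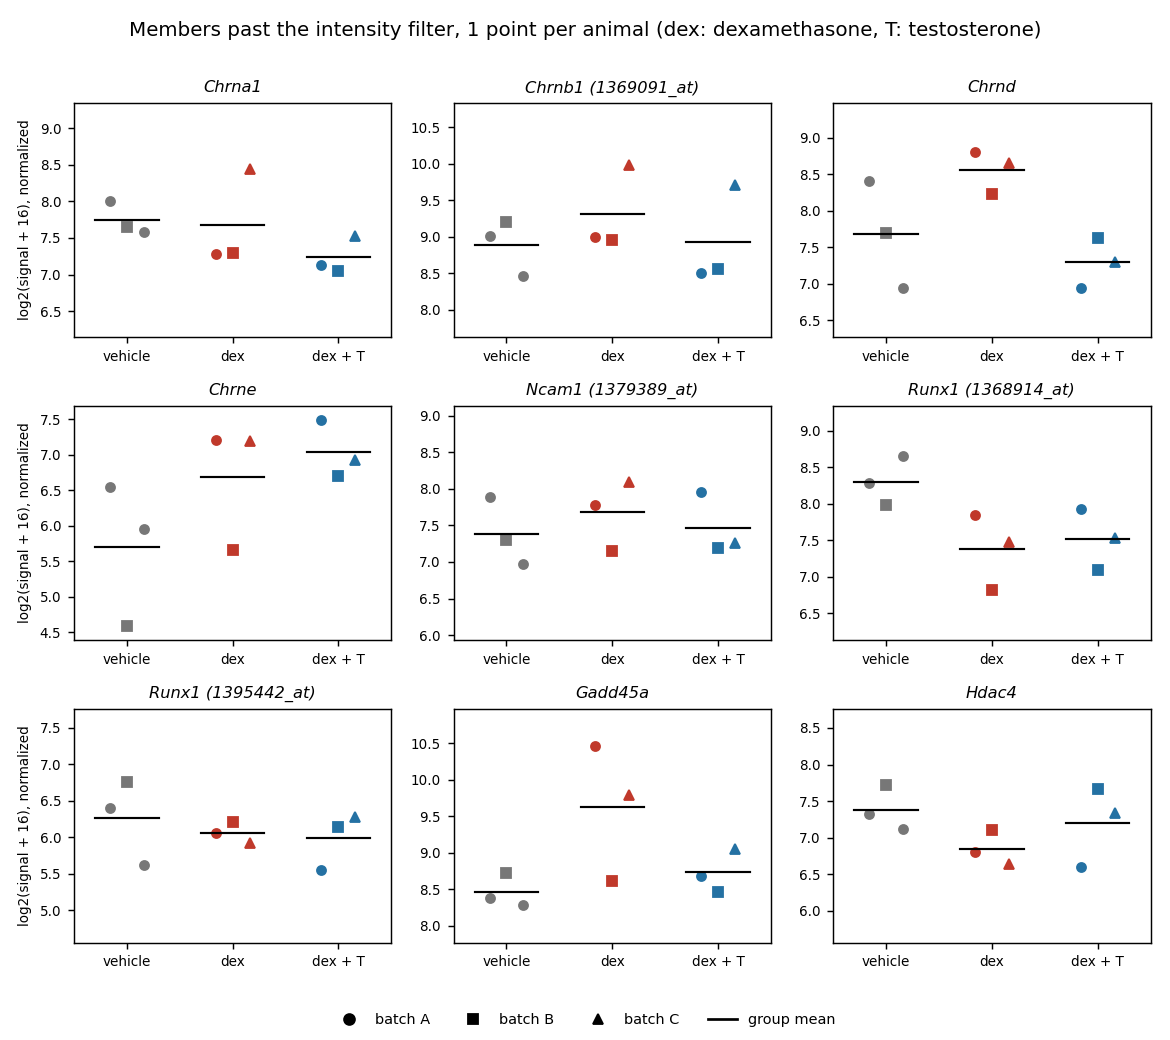
Normalized log2(signal + 16) of the 9 member probe sets past the intensity filter, 1 point per animal, with the group mean as a bar and the technical batch as the shape of the point; the height of the axis differs between panels. Chrnd in the combination group lies below all dexamethasone arrays, and Gadd45a is high in dexamethasone replicates 1 and 3 but not in replicate 2.

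**Figure D2:**
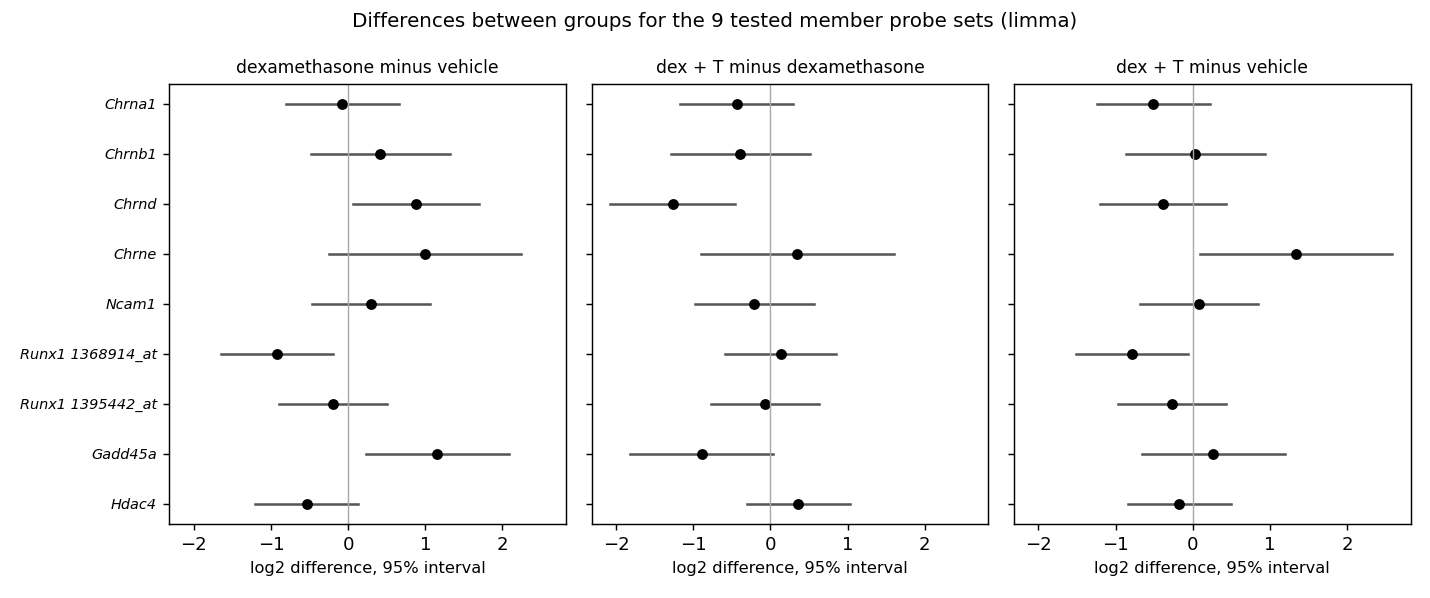
Log2 differences between groups of the same 9 probe sets, with points for the limma estimate and lines for its 95% interval, 1 panel per comparison. Intervals that leave out 0 are those of Chrnd, Runx1 (1368914_at), Gadd45a and Chrne named in the text, and none of these passed after adjustment over all probe sets.

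The delta subunit gene Chrnd, part of both the fetal and the adult receptor, had the lowest p among the members. Its log2 level was 8.41, 7.69 and 6.94 in vehicle replicates 1, 2 and 3, 8.80, 8.23 and 8.65 in the dexamethasone replicates and 6.95, 7.63 and 7.30 in the combination replicates. All 3 combination arrays lay below all 3 dexamethasone arrays, while the vehicle arrays, at 6.94 to 8.41, overlapped each of these groups in part. The combination was lower than dexamethasone by a log2 difference of -1.27 ± 0.36 (SE, n = 3 per group, 95% interval -2.08 to -0.45), a 2.41-fold difference in level, with a limma adjusted p of 0.224. All batches gave the same sign, with -1.86 in A, -0.60 in B and -1.34 in C. Dexamethasone stood 0.88 ± 0.36 above vehicle (95% interval 0.06 to 1.69, limma adjusted p = 0.284), by 1.12 within batch A and 0.54 within batch B, and by 0.52 without vehicle replicate 3. The combination and vehicle differed by -0.39 ± 0.36 (limma adjusted p = 0.90), by -0.02 without vehicle replicate 1 and by -0.77 without vehicle replicate 3.

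By the rule for the member with the lowest p of the limma F test over the 3 groups, the genes with the pattern most like Chrnd were sought among 10427 other genes over the 9 arrays. They were Fbxo8 (Pearson r = 0.934), Tasp1 (r = 0.928) and Ddx54 (r = 0.924), given as a description only, since all points share the arrays and the best of many genes were picked. Tasp1, for example, had log2 levels of 9.23 to 9.54 in the dexamethasone group against 8.14 to 8.59 in the combination group and 8.20 to 8.90 in vehicle. The F test p of Chrnd was 0.0176 before and 0.269 after adjustment over all probe sets.

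Chrne, the adult epsilon subunit, had the widest spread among the members. Its log2 level was 6.54, 4.59 and 5.95 in the vehicle replicates, 7.21, 5.66 and 7.19 in the dexamethasone replicates and 7.49, 6.70 and 6.93 in the combination replicates. The combination arrays all lay above the vehicle arrays, and dexamethasone replicate 2 lay within the vehicle range. The combination minus vehicle difference was 1.34 ± 0.55 (95% interval 0.10 to 2.59, limma adjusted p = 0.815), 1.24 within batch A and 2.10 within batch B. Dexamethasone minus vehicle was 0.99 ± 0.55 (limma adjusted p = 0.437). Vehicle replicate 2 was the lowest array by far, and without it these differences were 0.79 and 0.44. The combination minus dexamethasone was 0.35 ± 0.55 (limma adjusted p = 0.889), and -0.16 without dexamethasone replicate 2. The residual SD of Chrne was 0.81, at the 93.7th percentile of all tested probe sets, whose median was 0.34.

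Chrng, the fetal gamma subunit, was dim in every array. Its log2 level was 4.78, 4.93 and 4.70 in vehicle, 4.84, 4.78 and 4.53 under dexamethasone and 4.57, 4.26 and 4.76 under both hormones, all below the filter. The groups overlapped in each comparison. In a fit without the filter the differences were -0.08 ± 0.22 for dexamethasone minus vehicle (95% interval -0.57 to 0.40, limma adjusted p = 0.928) and -0.19 ± 0.22 for the combination minus dexamethasone (-0.67 to 0.30, limma adjusted p = 0.885). At signals this low a change of the gamma subunit would be compressed by the pseudocount, so these intervals bound the measured signal only.

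The alpha and beta subunit genes, which belong to both receptor forms, each had their highest value in dexamethasone replicate 3, of batch C. Only Chrnb1 was also high in the other array of that batch, combination replicate 3. Chrna1, whose product holds the acetylcholine binding site, had log2 levels of 8.01, 7.65 and 7.58 in vehicle, 7.28, 7.29 and 8.44 under dexamethasone and 7.13, 7.05 and 7.53 under both hormones. All combination arrays lay below all vehicle arrays, and the highest value of the 9 was dexamethasone replicate 3, of batch C. The combination minus vehicle difference was -0.51 ± 0.32 (95% interval -1.24 to 0.22, limma adjusted p = 0.862), -0.66 within batch A and -0.60 within batch B. Dexamethasone minus vehicle was -0.07 ± 0.32 (limma adjusted p = 0.937), with -0.51 in batch A and -0.36 in batch B. The combination minus dexamethasone was -0.44 ± 0.32 (limma adjusted p = 0.692); in A it was -0.15, in B -0.24 and in C -0.92. Without dexamethasone replicate 3 it was -0.05, and the dexamethasone minus vehicle difference was then -0.45.

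Chrnb1 was highest in the arrays of batch C, at 9.99 in dexamethasone replicate 3 and 9.71 in combination replicate 3, against 8.47 to 9.20 in the other 7 arrays. The high Gapdh 3' to 5' ratio of those arrays moves with this level, and its part in the result was not tested. The vehicle replicates stood at 9.01, 9.20 and 8.47, dexamethasone replicates 1 and 2 at 8.99 and 8.96, and combination replicates 1 and 2 at 8.51 and 8.56. Dexamethasone minus vehicle was 0.42 ± 0.40 (95% interval -0.48 to 1.32, limma adjusted p = 0.667), but 0.25 within batch A and -0.24 within batch B, and 0.08 without dexamethasone replicate 3. The combination minus dexamethasone was -0.39 ± 0.40 (limma adjusted p = 0.804), at -0.49, -0.40 and -0.28 in the 3 batches. It was -0.05 without dexamethasone replicate 3 and -0.77 without combination replicate 3, the arrays of batch C. The other probe set of Chrnb1 (1379870_at) was below the filter, between 4.25 and 5.80 in all arrays, with no separation of the groups.

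Musk encodes the kinase through which agrin acts. Its log2 level was 5.41, 6.45 and 5.12 in vehicle, 6.06, 4.47 and 5.21 under dexamethasone and 6.13, 5.54 and 5.16 under both hormones, with a mean of 5.51 that left it just below the filter of 5.75. Each group spanned the means of the others. Without the filter, dexamethasone minus vehicle was -0.41 ± 0.47 (95% interval -1.47 to 0.65, limma adjusted p = 0.817), with opposite signs in batch A (0.80) and batch B (-1.98). The combination minus dexamethasone was 0.36 ± 0.47 (-0.70 to 1.43, limma adjusted p = 0.903).

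Ncam1 encodes a cell adhesion molecule that is found at the synapse of adult fibres, on satellite cells and on some Schwann cells, and along the whole fibre after denervation. Its brightest probe set (1379389_at) had log2 levels of 7.89, 7.30 and 6.97 in vehicle, 7.79, 7.15 and 8.10 under dexamethasone and 7.96, 7.19 and 7.26 under both hormones. The 3 groups overlapped fully. Dexamethasone minus vehicle was 0.29 ± 0.34 (95% interval -0.47 to 1.06, limma adjusted p = 0.735) and the combination minus dexamethasone -0.21 ± 0.34 (-0.97 to 0.56, limma adjusted p = 0.897). Without dexamethasone replicate 3 they were 0.08 and 0.0034. Of its dim probe sets, 1377368_at stood at 5.54, 5.42 and 5.54 in the combination against 4.91, 5.12 and 4.36 in vehicle, without overlap. That difference was 0.71 ± 0.31 without the filter, with a limma adjusted p of 0.849. The third (1368320_at) lay between 4.43 and 5.87 in all arrays.

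**Figure D3:**
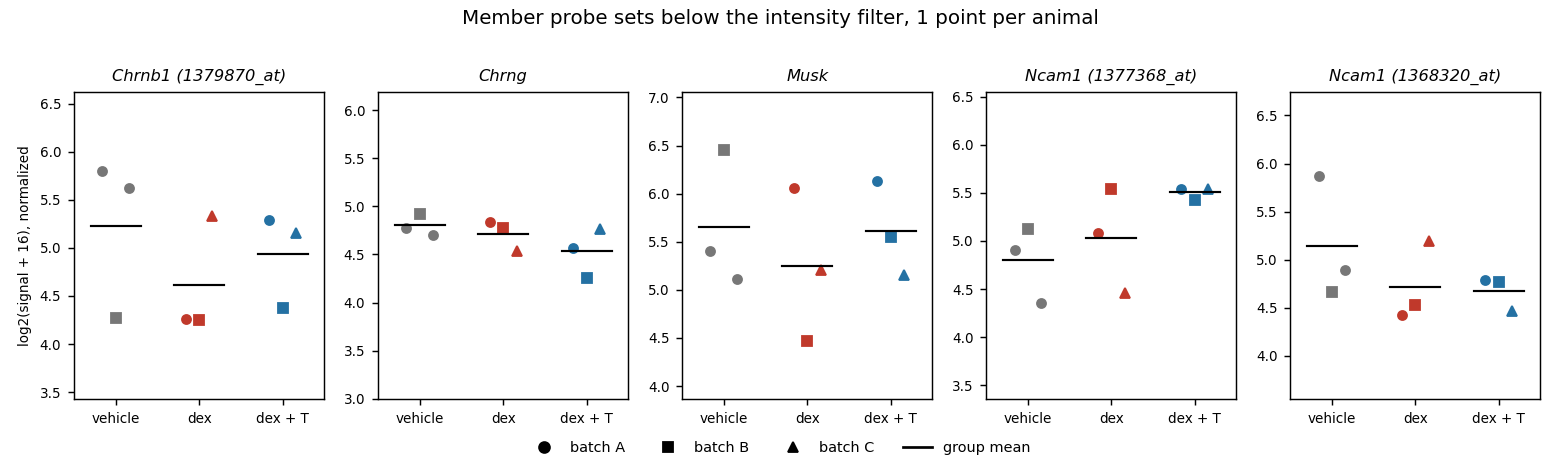
Normalized log2(signal + 16) of the 5 member probe sets below the intensity filter, 1 point per animal, with the group mean as a bar and the technical batch as the shape of the point. Chrng stays between 4.26 and 4.93 in all 9 arrays, and Musk spreads over all 3 groups.

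Markers of the other cells that carry Ncam1 were measured beside it. Of 5 satellite cell markers 3 were on the array under a single symbol (Cdh15, Sdc4 and Calcr), and their mean log2 level was 8.77 to 8.89 in the dexamethasone arrays, 7.41 to 8.04 in vehicle and 7.77 to 8.03 in the combination. None of the 3 passed in any comparison, with a median dexamethasone minus vehicle difference of 1.18. All 3 were higher under dexamethasone at a limma unadjusted p under 0.05, where 7.88% of all tested probe sets were. In the combination against dexamethasone their median difference was -1.20, and 2 of the 3 were lower at that unadjusted limma p, where 5.36% of all were. Of 8 Schwann cell markers 6 were on the array, Sox10 and Pmp2 below the filter, and their mean level ranged from 6.95 to 8.40 in vehicle, from 6.63 to 7.84 under dexamethasone and from 6.63 to 7.11 in the combination. The part of these cells in the level of Ncam1 was not tested.

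Runx1 encodes a transcription factor that is low in innervated muscle and limits the wasting of denervated fibres. Its brighter probe set (1368914_at) had log2 levels of 8.28, 7.98 and 8.65 in vehicle, 7.85, 6.83 and 7.48 under dexamethasone and 7.92, 7.09 and 7.53 under both hormones. Every array of either hormone group lay below every vehicle array, and the hormone groups overlapped each other. Dexamethasone minus vehicle was -0.92 ± 0.32 (95% interval -1.64 to -0.20, a 1.89-fold lower level, limma adjusted p = 0.212), with -0.61 in batch A and -1.16 in batch B. The combination minus vehicle was -0.79 ± 0.32 (95% interval -1.51 to -0.06, limma adjusted p = 0.815), with -0.54 in batch A and -0.89 in batch B. The combination minus dexamethasone was 0.13 ± 0.32 (95% interval -0.59 to 0.86, limma adjusted p = 0.937).

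The other probe set of Runx1 (1395442_at) did not show this separation. It stood at 6.40, 6.76 and 5.63 in vehicle, 6.05, 6.21 and 5.92 under dexamethasone and 5.55, 6.14 and 6.28 under both hormones, and all groups overlapped. Its dexamethasone minus vehicle difference was -0.20 ± 0.31 (95% interval -0.90 to 0.50, limma adjusted p = 0.806). Runx1 is also made by leukocytes and other blood cells. The mean log2 level of 7 leukocyte markers, of which Itgam and Cd3e were below the filter, was 6.70 to 7.13 in vehicle, 5.62 to 6.83 under dexamethasone and 6.10 to 6.57 in the combination. None of the 5 tested leukocyte markers passed in any comparison, the median dexamethasone minus vehicle difference was -0.85, and their part in the level of Runx1 was not tested.

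Gadd45a encodes a stress-induced protein that is known to promote fibre wasting after denervation, downstream of HDAC4. Its log2 level was 8.39, 8.73 and 8.28 in vehicle, 10.46, 8.62 and 9.79 under dexamethasone and 8.69, 8.46 and 9.05 under both hormones. Dexamethasone replicates 1 and 3 lay above all other arrays, while dexamethasone replicate 2 lay within the vehicle range. Dexamethasone minus vehicle was 1.16 ± 0.41 (95% interval 0.23 to 2.08, a 2.23-fold higher level, limma adjusted p = 0.219), but 2.12 within batch A and -0.11 within batch B. Without dexamethasone replicate 1 that difference was 0.74. Over all 20 alternative settings its adjusted p ran from 0.0592, with array weights, to 0.49. The combination minus dexamethasone was -0.89 ± 0.41 (95% interval -1.81 to 0.04, limma adjusted p = 0.479). It was largest in batch A at -1.77, smaller in B at -0.15 and in C at -0.74, and -0.47 without dexamethasone replicate 1. The combination minus vehicle was 0.27 ± 0.41 (limma adjusted p = 0.933).

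Hdac4, the class IIa deacetylase that represses MEF2-driven transcription, had log2 levels of 7.32, 7.72 and 7.11 in vehicle, 6.80, 7.10 and 6.64 under dexamethasone and 6.60, 7.67 and 7.34 under both hormones. The dexamethasone arrays lay below the vehicle arrays, though the highest of the former, at 7.10, came close to the lowest of the latter, at 7.11. The combination arrays overlapped both. Dexamethasone minus vehicle was -0.54 ± 0.30 (95% interval -1.20 to 0.13, limma adjusted p = 0.432), -0.42 within batch A and -0.62 within batch B. The combination minus dexamethasone was 0.36 ± 0.30 (-0.31 to 1.03, limma adjusted p = 0.728), and 0.13 without combination replicate 2.

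Counted without regard to the test, 2 of 9 member probe sets did not overlap between dexamethasone and vehicle (Runx1 1368914_at and Hdac4, both lower), where 22.9% of all tested probe sets did not, 10.4% with lower dexamethasone arrays. Between the combination and dexamethasone 1 of 9 did not overlap (Chrnd, lower), where 14.6% of all did not, 7.35% with lower combination arrays. Between the combination and vehicle 3 of 9 did not overlap (Chrne higher, Chrna1 and Runx1 1368914_at lower), where 13.3% of all did not, 7.53% higher and 5.79% lower. The median difference of the 9 was 0.29 for dexamethasone minus vehicle, beside 0.01 for all tested probe sets, and -0.21 for the combination minus dexamethasone, beside -0.0011.

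The wider set of junction and denervation genes gave 1 call. Of 54 genes in 6 lists that were above the filter, 1 rose under dexamethasone, 0 fell and the others did not pass. Of all tested probe sets 0.569% rose and 0.483% fell. The median difference of the 54 genes was -0.03. At an unadjusted limma p under 0.05 stood 8 higher and 5 lower, beside 7.88% higher and 7.57% lower of all tested probe sets. In the combination against dexamethasone 0 of 54 passed, beside 0.113% of all, and 5 were higher and 6 lower at an unadjusted limma p under 0.05, beside 5.59% and 5.36% of all. Against vehicle 0 of 54 passed, as did 0% of all, and 1 was higher and 1 lower at that unadjusted limma p, beside 3.16% and 2.95% of all. The 1 gene was Gadd45g, a relative of Gadd45a in the same family of stress proteins. Its log2 level was 8.34, 7.34 and 8.75 in vehicle, 10.66, 10.66 and 10.94 under dexamethasone and 10.15, 9.73 and 9.80 under both hormones, so that the 3 groups did not overlap. It rose with dexamethasone by 2.61 ± 0.33 (SE, n = 3 per group, 95% interval 1.86 to 3.36), 6.10-fold, with a limma adjusted p of 0.0206. Within batch A the difference was 2.11 and within B 3.32. It did not pass without vehicle replicate 1, 2 or 3 or without dexamethasone replicate 1 or 2, with limma adjusted p of 0.0602 to 0.0807 and differences of 2.21 to 2.94, while over all alternatives the adjusted p ran from 0.0041 to 0.0807. The combination minus dexamethasone difference was -0.86 ± 0.33 (limma adjusted p = 0.39), and the combination minus vehicle difference 1.75 ± 0.33 (limma adjusted p = 0.581).

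Gadd45b, the other relative, had log2 levels of 8.38, 8.31 and 8.07 in vehicle, 9.55, 9.35 and 8.66 under dexamethasone and 7.94, 8.16 and 8.50 under both hormones. The dexamethasone arrays lay above all others. Dexamethasone minus vehicle was 0.93 ± 0.26 (limma adjusted p = 0.131) and the combination minus dexamethasone -0.99 ± 0.26 (limma adjusted p = 0.202), neither past the threshold. The list of deacetylase partners and Gadd45 genes as a whole had 1 of 9 genes that rose, where 0.569% of all tested probe sets rose. Its median dexamethasone minus vehicle difference was 0.14 with 1 probe set per gene and -0.04 over all 14 probe sets.

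**Figure D4:**
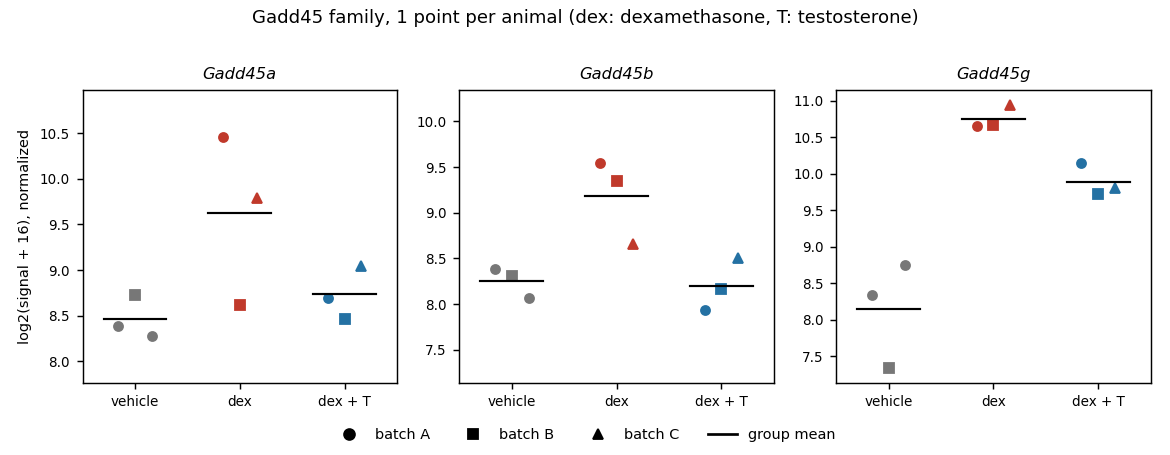
Normalized log2(signal + 16) of Gadd45a, Gadd45b and Gadd45g, 1 point per animal, with the group mean as a bar and the technical batch as the shape of the point. The dexamethasone arrays of Gadd45g, at 10.66 to 10.94, lie above the vehicle arrays at 7.34 to 8.75, while those of Gadd45a span 8.62 to 10.46.

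In the agrin and MuSK signalling list, 0 of 14 genes passed in any comparison, and the median dexamethasone minus vehicle difference was -0.33. The genes with the lowest p were Crk, an adaptor downstream of Dok-7, and Lrp4, the agrin receptor. Lrp4 stood at 7.80, 7.07 and 7.81 in vehicle, 8.50, 8.12 and 8.26 under dexamethasone and 7.24, 7.72 and 7.67 under both hormones. The dexamethasone arrays lay above both other groups, by 0.73 ± 0.26 over vehicle (limma adjusted p = 0.212) and with a combination minus dexamethasone difference of -0.75 ± 0.26 (limma adjusted p = 0.323). Crk went the other way, with -0.61 ± 0.21 for dexamethasone minus vehicle (limma adjusted p = 0.214) and 0.68 ± 0.21 for the combination minus dexamethasone (limma adjusted p = 0.282). Others, chosen for their role after the values were seen, had dexamethasone minus vehicle differences of -0.30 ± 0.20 for agrin itself (Agrn), -0.41 ± 0.30 for the MuSK activator Dok7 and -0.36 ± 0.19 for Rapsn, which anchors the receptor, with limma adjusted p of 0.526, 0.554 and 0.411.

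Of the synaptic basal lamina and acetylcholine breakdown list, 0 of 6 tested genes passed in any comparison. They were Bche, Colq, Lamb2, Lama4, Lama5 and Nid2, and the acetylcholinesterase gene Ache was not among them. At an unadjusted limma p under 0.05, 1 was higher and 3 lower under dexamethasone, beside 7.88% and 7.57% of all tested probe sets. In the combination against dexamethasone 3 were higher and 1 lower at that unadjusted limma p, beside 5.59% and 5.36% of all. The laminin gene Lama4 had a dexamethasone minus vehicle difference of -1.53 ± 0.33 (limma adjusted p = 0.067) and the nidogen gene Nid2 one of -1.53 ± 0.37 (limma adjusted p = 0.089). Lama4 stood at 8.82, 8.72 and 9.37 in vehicle, 7.24, 7.06 and 8.0 under dexamethasone and 8.67, 8.19 and 7.71 under both hormones, so that every dexamethasone array lay below every vehicle array. Lama4 passed in 6 and Nid2 in 4 of the 20 alternative settings, both of them without batch C. Both genes are also made by vessels and fibroblasts, and the mean log2 level of 6 fibroblast markers was 8.58 to 10.50 under dexamethasone against 11.35 to 11.80 in vehicle and 10.10 to 11.51 in the combination. Of these 6 markers 1 fell under dexamethasone, with a list median of -2.32, where 0.483% of all tested probe sets fell. At an unadjusted limma p under 0.05, 4 of the 6 were lower, where 7.57% of all were. In the combination against dexamethasone 0 passed, and 3 were higher at that unadjusted limma p, where 5.59% of all were. The part of fibroblasts in the level of Lama4 and Nid2 was not tested. Colq, the collagen tail that holds acetylcholinesterase in the cleft, chosen for its role after the values were seen, had a dexamethasone minus vehicle difference of 0.46 ± 0.17 (limma adjusted p = 0.238). The list median was -0.74 for dexamethasone minus vehicle and 0.51 for the combination minus dexamethasone, with 1 probe set per gene, and -0.09 and 0.26 over all 7 probe sets.

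In the denervation response list, 0 of 14 genes passed in any comparison. The medians were 0.12 for dexamethasone minus vehicle and -0.21 for the combination minus dexamethasone with 1 probe set per gene, and 0.23 and -0.17 over all 18 probe sets. At an unadjusted limma p under 0.05, 3 were higher and 0 lower under dexamethasone, beside 7.88% and 7.57% of all tested probe sets. In the combination against dexamethasone 0 were higher and 2 lower at that unadjusted limma p, beside 5.59% and 5.36% of all. The lowest p belonged to the cell cycle inhibitor gene Cdkn1a and the muscle ubiquitin ligase gene Trim63. Cdkn1a stood at 8.74, 8.47 and 8.36 in vehicle, 11.17, 12.11 and 9.73 under dexamethasone and 8.87, 9.51 and 10.25 under both hormones, a dexamethasone minus vehicle difference of 2.48 ± 0.55 (limma adjusted p = 0.074). It passed in 5 of the 20 alternatives, among them the fit without batch C, where it stood at 3.05 (limma adjusted p = 0.0111), and its adjusted p over all of them ran from 0.0111 to 0.242. Trim63, which acts in glucocorticoid as well as denervation wasting, had a dexamethasone minus vehicle difference of 1.11 ± 0.35 (limma adjusted p = 0.168). That difference passed in 2 of the 20 alternatives, with a limma adjusted p from 0.0376 to 0.409 over all of them. The combination minus dexamethasone difference of Trim63 was -1.11 ± 0.35 (limma adjusted p = 0.286). Myog, the myogenic factor that HDAC4 controls in denervated muscle, chosen for its role after the values were seen, had a dexamethasone minus vehicle difference of 0.20 ± 0.25 (limma adjusted p = 0.742).

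The 2 remaining lists also gave 0 calls. Through neuregulin, its receptors and ETS factors the nerve drives transcription under the synapse. Of this list 4 of 8 genes were above the filter, namely Nrg1, Etv5, Gabpa and Gabpb1. The receptor genes Erbb2, Erbb3 and Erbb4 were below it and were not tested. The median dexamethasone minus vehicle difference was -0.04 with 1 probe set per gene, and -0.26 over all 6 probe sets above the filter. Etv5, an ETS factor of the junction, had -0.70 ± 0.31 (limma adjusted p = 0.317), and Nrg1 had -0.73 ± 0.38 for the combination minus dexamethasone (limma adjusted p = 0.542). Of the postsynaptic scaffold and channel genes, 7 of 12 were tested, with a median of 0.04, and of -0.03 over all 12 probe sets. The lowest p there were those of the linker gene Macf1, at -0.39 ± 0.22 (limma adjusted p = 0.448), and of Pdzrn3, a ubiquitin ligase that acts on MuSK, at -0.34 ± 0.21 (limma adjusted p = 0.484).

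**Figure D5:**
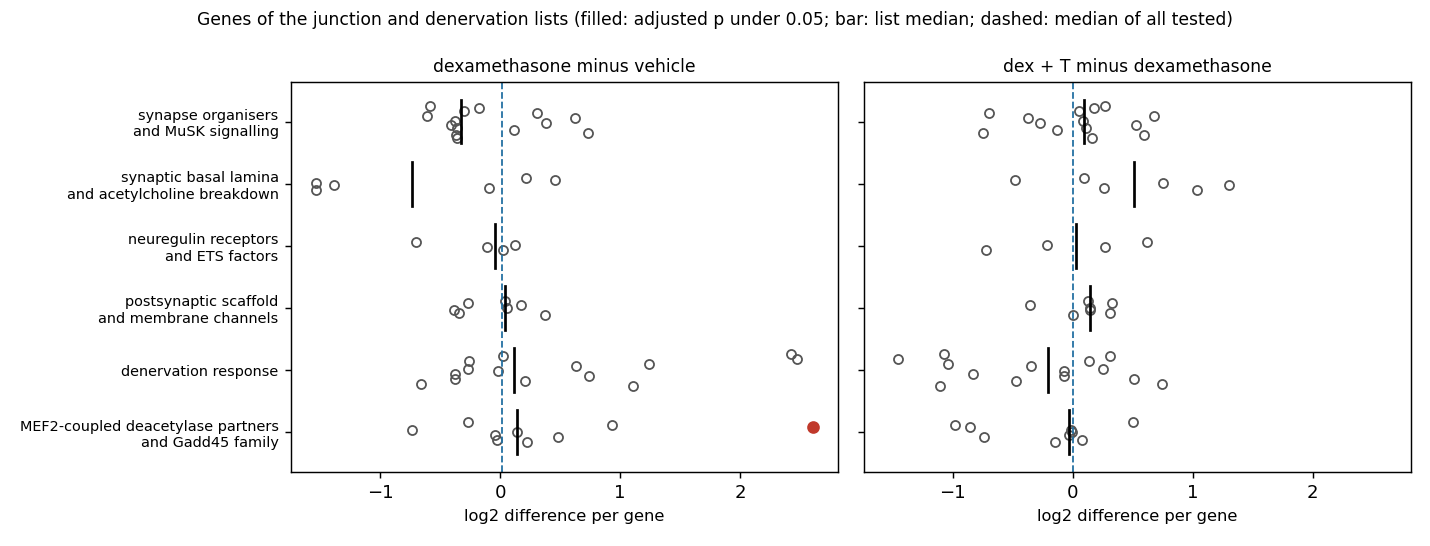
Log2 differences of the genes of the 6 lists above the filter, 1 point per gene, for dexamethasone minus vehicle and for the combination minus dexamethasone, with the list median as a bar and the median of all tested probe sets as a dashed line. The single filled point is Gadd45g at 2.61, the 1 gene past the threshold.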

How the data were processed

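Total RNA from 20 mg pieces of gastrocnemius was hybridised to Affymetrix rat 230-2 arrays, per the labels' protocols. The deposited values are linear intensities, 1 signal per probe set and array; the authors' signal algorithm is not given in the sources used here. Deposited trimmed means (2% cut at each end) were about 500 in 5 arrays and 113.3 to 206.8 in 4. The log2 of intensity plus 16 was quantile normalized over 31042 probe sets without the 57 controls, and fitted with limma 3.58.1 in R 4.3.3, with 1 mean per group over 9 arrays. Array number limits precision. The fit was tested on simulated data without batches, with changes planted in probe sets of below-median spread. The tested members have above-median spread, so that check does not say how well their changes would be found. Of the probe sets, 20826 had 1 symbol, 436 several and 9780 none here; 20758 of those with 1 symbol were found by gene ID in the RefSeq table of GRCr8. A list gene was represented by its brightest probe set. All member probe sets are named; of each list, the 2 genes with the lowest p and any gene called. Members and lists were chosen with earlier results of these data known. Batches were set from the deposited scale and spikes after values had been seen. Promoter sequences are from RefSeq, GRCr8. The alternatives were another scaling, pseudocount, filter, block, variance model, array weights and leaving out arrays.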

Additional observations from a re-analysis of the deposited data

How the results depend on the processing

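For the members no alternative setting gave a call: 0 of 534 refitted differences passed, 511 kept their sign and 23 changed it, 15 of these when 1 array was left out. The differences of the main fit that changed sign were at most 0.35 in size, that of Chrne in the combination against dexamethasone. In the combination against vehicle the main fit gave 0.03 for Chrnb1, 0.08 for Ncam1 (1379389_at) and -0.18 for Hdac4. For Runx1 (1395442_at) it gave -0.07 in the combination against dexamethasone. Without batch C Ncam1 stood at 0.10 in the combination against dexamethasone. Against vehicle, Chrnb1 in the combination stood at -0.37 with batch as a block, -0.35 without batch C and -0.17 with array weights, and Ncam1 at -0.11 with scaling only and -0.14 with array weights. With array weights Hdac4 stood at 0.12 against vehicle in the combination and Runx1 (1368914_at) at -0.21 against dexamethasone. Leaving out 1 array gave -0.45 to 0.12 for Chrna1 and -0.52 to 0.049 for Runx1 (1395442_at) in dexamethasone against vehicle. In the combination against dexamethasone it gave -0.16 to 0.61 for Chrne, -0.48 to 0.0034 for Ncam1, -0.15 to 0.36 for Runx1 (1368914_at) and -0.21 to 0.15 for Runx1 (1395442_at). In the combination against vehicle it gave -0.36 to 0.24 for Chrnb1, -0.16 to 0.34 for Ncam1 and -0.41 to 0.13 for Hdac4. The count over all probe sets moved widely. From 196 in dexamethasone against vehicle it went to 54 and 414 with pseudocounts of 1 and 64, 48 with no filter, 469 with a filter at the 60th percentile, 460 without batch C, 123 with only the 2 groups compared, 510 with an intensity trend and robust variance, 616 with array weights, and 1 to 340 with 1 array left out (2, 1 and 1 without vehicle replicates 1, 2 and 3, 6, 13 and 340 without dexamethasone replicates 1, 2 and 3, and 52 without combination replicate 2). From 21 in the combination against dexamethasone it went, in that order, to 5, 102, 0, 83, 39, 0, 149, 47 and 0 to 67 (5, 1 and 0 without vehicle replicates 1, 2 and 3, 67 without dexamethasone replicate 3, and 0 without any other array). From 0 in the combination against vehicle it went to 5 with array weights. The replicate block gave 13 and 0 calls in the first and second comparison, and 0 in the third; the numbers were not taken as pairs, because the labels give no shared source and not every same-numbered pair correlated above 0.1 in its deviations from the group means (-0.20 to 0.59). Still, 6 of 9 arrays correlated best with one of their own number. The replicates 1 share technical batch A, the replicates 2 batch B and 2 of the replicates 3 batch C. Only vehicle replicate 3, of batch A, breaks this match, so number and batch can hardly be told apart. The cause of these moves was not tested. Dim members such as Chrng and Musk are limited by signal.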
